A study of Mus musculus with 12 samples.

Results

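The genes described here are 5 members of the circadian clock on the side of its activator BMAL1: Arntl, Npas2, Clock, Cry1 and Rora. They were taken by gene symbol from the platform annotation, each is read by 1 transcript cluster (the set of short probes that the array summarises into a single value per gene), and they are 5 of 22180 genes tested. Livers came from 6 Ppara KO mice, in which the gene of the nuclear receptor PPARα is disrupted, and from 6 WT mice. All 12 animals were C57Bl/6 females of 12 to 14 weeks, kept under 12 hours of light and 12 hours of dark, with 1 array of total liver RNA per mouse. The labels give neither the disrupted part of the gene, nor a treatment, nor the hour of liver collection, the feeding state or the kinship of the animals.

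The mammalian clock is a feedback loop of transcription. BMAL1, the product of Arntl, pairs with CLOCK or with its close relative NPAS2, and the pair binds E-boxes in front of the period, cryptochrome, REV-ERB and PAR bZIP genes. Period and cryptochrome proteins then block the pair, while ROR receptors activate and REV-ERB receptors repress Arntl itself through a shared DNA element. In liver the transcripts on the BMAL1 side and the E-box-driven transcripts peak at opposite parts of the day.

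The 5 genes lie on different chromosomes. In the RefSeq annotation of build GRCm38.p6, Arntl spans chr7:113178471-113314126, Npas2 chr1:39193702-39363240, Clock chr5:76209868-76305603, Cry1 chr10:85131700-85185054 and Rora chr9:68653404-69388246. RefSeq gives 8 promoter windows for them, each from 250 bases before to 50 bases after a transcript start. The 2 windows below are shown because they hold the elements through which this part of the clock is wired. In the Arntl window (chr7:113207261-113207560, plus strand) capitals mark 2 copies of the core of the ROR and REV-ERB element. In the Cry1 window (chr10:85185005-85185304, minus strand) capitals mark an E-box, CACGTG, and a variant of it, CACGTT, which lies on the opposite strand.
Arntl: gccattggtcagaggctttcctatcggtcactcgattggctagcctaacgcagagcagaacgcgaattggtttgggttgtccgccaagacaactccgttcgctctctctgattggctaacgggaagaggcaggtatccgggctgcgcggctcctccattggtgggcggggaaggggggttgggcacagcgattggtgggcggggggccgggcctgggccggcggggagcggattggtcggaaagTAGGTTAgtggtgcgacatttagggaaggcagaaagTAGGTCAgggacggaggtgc
Cry1: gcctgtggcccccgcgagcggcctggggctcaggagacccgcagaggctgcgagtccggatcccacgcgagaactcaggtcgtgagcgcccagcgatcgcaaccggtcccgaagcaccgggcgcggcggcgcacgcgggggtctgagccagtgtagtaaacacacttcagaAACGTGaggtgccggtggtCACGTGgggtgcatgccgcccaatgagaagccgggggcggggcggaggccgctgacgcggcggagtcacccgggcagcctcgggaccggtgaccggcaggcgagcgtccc

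In the Arntl window the core TAGGTTA lies at chr7:113207505-113207511, at the transcript start, and TAGGTCA at chr7:113207541-113207547, downstream of it. Both strands were searched. The first of these cores was in 1.44% of the 32851 promoter windows of all genes and the other in 2.61%, while 16 windows (0.0487%) held both. The spelling TAGGTTA was added after the Arntl window had been seen, which also bears on the share of windows with both cores. The E-box of Cry1 lies at chr10:85185109-85185114 and its variant at chr10:85185128-85185133. Of all windows, 7.15% held the E-box and 4.68% the variant. A D-box, spelled TTATGTAA, was in 0.938% of all windows, and a direct repeat of the PPAR type, in which copies of AGGTCA stand 1 base apart, in 0.0396%. Neither was found in any of the 8 windows of these genes, and the windows of Npas2, Clock and Rora held none of the searched motifs. A match is a description of letters, and elements outside these windows were not searched.

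Values are log2 array values after RMA, and differences are Ppara KO minus WT on that scale. The targeted gene did not differ by its single cluster: Ppara had a lowest, median and highest value of 7.81, 8.04 and 8.16 in Ppara KO livers, against 7.71, 8.05 and 8.14 in WT livers (exact 2-sided permutation p = 0.712). No label or file says whether its probes lie in the disrupted part, and the value therefore does not check the genotype. Between 2 arrays of a genotype the correlation over all genes ran from 0.991 to 0.993, so no array stood apart as a whole. A gene was called at an adjusted p under 0.05 from limma with Benjamini-Hochberg adjustment over all genes, which 10.2% of all genes passed (5.77% lower, 4.46% higher). Of 8 hepatocyte markers 1 was called, Cyp2e1, which was higher, and the mean of the 8 was 12.48 to 12.54 in Ppara KO livers and 12.45 to 12.48 in WT livers. Of the markers of other cells, 1 of 7 for macrophages was higher, 2 of 4 for cholangiocytes were lower, and 0 of 6 endothelial, 0 of 6 stellate and 0 of 5 lymphocyte genes were called, with 0 red cell genes measured. Of 8 adipocyte markers 2 were lower, Adipoq and Lipe, and 1 was higher, Pparg. Several of these calls were fragile: with 1 animal left out, those of Cd5l (macrophages) and Sox9 (cholangiocytes) ended in 8 of 12 cases, of Krt19 (cholangiocytes) in 6 and of Adipoq in 5. Without WT animals 1, 3 and 5, those of Cyp2e1, Adipoq, Lipe, Cd5l and Sox9 ended (limma adjusted p = 0.102, 0.0998, 0.218, 0.101 and 0.0913). The mean of the 8 adipocyte markers was 4.50 to 4.77 in Ppara KO livers, 5.43, 6.14 and 6.17 in WT animals 1, 3 and 5, and 4.60 to 4.90 in WT animals 2, 4 and 6.

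Livers of Ppara KO mice held much less mRNA of the 3 genes that make the activator complex, while Cry1 and Rora did not pass the test. Npas2 was 11.2-fold lower, Arntl 6.88-fold lower and Clock 2.17-fold lower. By limma 3 of the 5 genes were called, all of them lower, against 10.2% of all genes tested in either direction, 5.77% lower and 4.46% higher. The same 3 were both called and lower by at least 1 on the log2 scale, as were 0.473% of all genes. For the same 3 genes every Ppara KO value lay below every WT value, an arrangement found in 3.78% of all genes. Without WT animals 1, 3 and 5, the ones high in adipocyte markers, the differences were -2.79 for Arntl, -3.54 for Npas2 and -1.07 for Clock, each still called (limma adjusted p = 0.00101, 5.94e-08 and 0.00639). A lower value in whole liver can come from less RNA per cell or from fewer cells of a type, which cannot be told apart here. The labels give neither the hour of collection nor the feeding state, so an effect of either cannot be told apart from one of genotype.

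Arntl encodes BMAL1, the partner that both CLOCK and NPAS2 need. Its lowest, median and highest log2 value was 5.04, 5.57 and 7.01 in Ppara KO livers, against 8.34, 8.54 and 8.67 in WT livers. The groups did not overlap, and the Ppara KO animals were spread far more widely than the WT animals. The mean was 5.74 ± 0.75 in Ppara KO and 8.53 ± 0.11 in WT (SD, n = 6 each), a difference of -2.78 (SE 0.26, 95% interval -3.34 to -2.23, limma adjusted p = 6.80e-06). The highest Ppara KO animal was number 2, and without it the difference was -3.04.

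Npas2 encodes the relative of CLOCK that can take its place beside BMAL1. Its values were 4.05, 4.19 and 4.63 in Ppara KO livers, against 7.60, 7.70 and 7.95 in WT livers, again as lowest, median and highest. Both groups were tight and far apart, and of all 22180 genes Npas2 had the smallest p and the fifth largest fall by log2 difference. The mean was 4.24 ± 0.20 in Ppara KO and 7.72 ± 0.12 in WT (SD, n = 6 each), a difference of -3.48 (SE 0.094, 95% interval -3.68 to -3.28, limma adjusted p = 8.56e-12). The Ppara KO level was under the median level of all genes (4.57), a range in which array values are compressed, so the fold may be understated.

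Clock encodes the second subunit of the activator. Its values were 8.15, 8.46 and 8.88 in Ppara KO livers, against 9.46, 9.62 and 9.79 in WT livers. The groups did not overlap, but the Ppara KO animals themselves fell into 2 sets of 3, at 8.22 and below in animals 1, 3 and 6 and at 8.71 and above in animals 2, 4 and 5. The mean was 8.50 ± 0.36 in Ppara KO and 9.62 ± 0.12 in WT (SD, n = 6 each), a difference of -1.12 (SE 0.14, 95% interval -1.41 to -0.83, limma adjusted p = 9.33e-05).

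**Figure D1:**
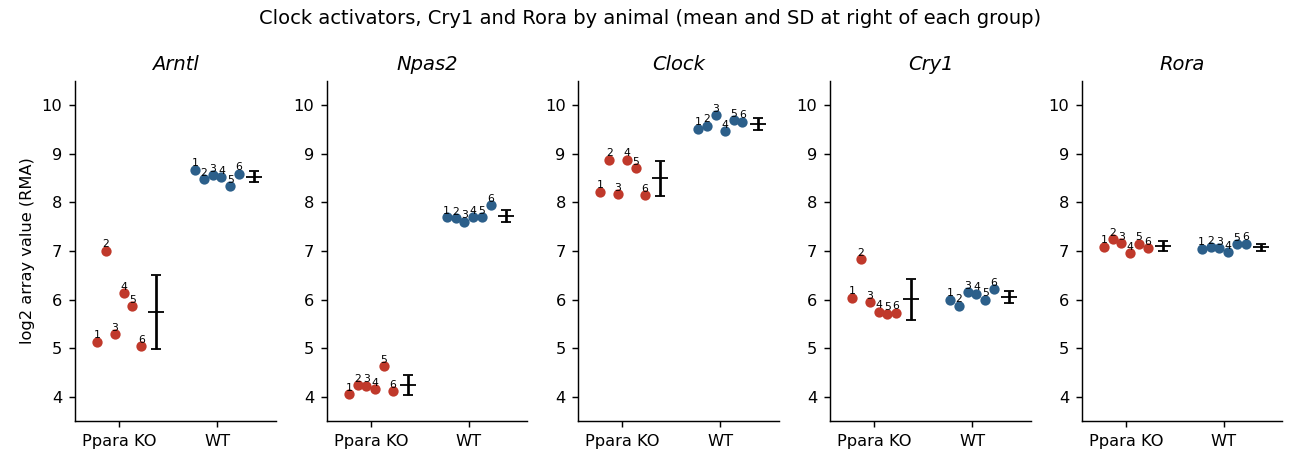
Log2 array values (y axis) of Arntl, Npas2, Clock, Cry1 and Rora in 6 Ppara KO animals (red, left) and 6 WT animals (blue, right), each point an animal with its number, with the mean and SD beside each group. Arntl, Npas2 and Clock show no overlap between genotypes, Cry1 and Rora overlap, and Ppara KO animal 2 is the highest of its group for Arntl, Clock, Cry1 and Rora.

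Cry1 encodes a cryptochrome, a repressor of the activator pair that carries both E-boxes and ROR elements in mouse. Its values were 5.71, 5.85 and 6.84 in Ppara KO livers, against 5.87, 6.06 and 6.21 in WT livers. The groups overlapped: 1 Ppara KO animal, number 2, lay above every WT animal, and 3, numbers 4, 5 and 6, lay below every WT animal. The difference was -0.056 (SE 0.16, 95% interval -0.39 to 0.28, limma adjusted p = 0.891). Without Ppara KO animal 2 it was -0.22 (SE 0.086, limma adjusted p = 0.141), which also missed the threshold. A decrease of up to 0.39 or an increase of up to 0.28 on the log2 scale lies within the interval, so the 2 genotypes are not shown to be alike.

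Rora encodes RORα, a receptor that activates Arntl through the element printed above. Its values were 6.95, 7.12 and 7.25 in Ppara KO livers, against 6.97, 7.07 and 7.15 in WT livers. The ranges overlapped almost fully, and the difference was 0.034 (SE 0.065, 95% interval -0.10 to 0.17, limma adjusted p = 0.820). The interval does not reach the difference seen for Clock. Rorb, a relative of Rora whose product acts mainly in retina and brain, stood at 2.95 to 3.70 in Ppara KO livers and 2.84 to 3.29 in WT livers, near the dim end of the array, and was not called (limma adjusted p = 0.299).

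The 5 genes did not change by a common amount. For each of the 10 pairs, the log2 ratio of both genes within an array was compared between genotypes by exact 2-sided permutation of the 12 animals, with p-values adjusted over the 10 pairs. Such a ratio shows unequal change and says nothing about which gene of a pair is more abundant. Npas2 fell further than Clock, with a difference of -2.37 (95% interval -2.71 to -2.02, exact permutation adjusted p = 0.00271). Arntl fell further than Clock as well, with a difference of -1.67 (95% interval -2.11 to -1.22, exact permutation adjusted p = 0.00271). Between Arntl and Npas2 the difference was 0.70 (95% interval 0.028 to 1.37, exact permutation adjusted p = 0.00722), a deeper fall of Npas2 that came to 0.45 without Ppara KO animal 2 (exact permutation adjusted p = 0.00722).

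The 6 pairs that set Arntl, Npas2 or Clock against Cry1 or Rora differed by -3.52 to -1.06, each with the unadjusted p of 0.00216 that is the smallest an exact permutation of 6 against 6 can give. Only Cry1 against Rora missed the threshold, with -0.090 (95% interval -0.45 to 0.27, exact permutation adjusted p = 0.615). Without Ppara KO animal 2 that pair gave -0.23 and an exact permutation adjusted p of 0.0390.

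**Figure D2:**
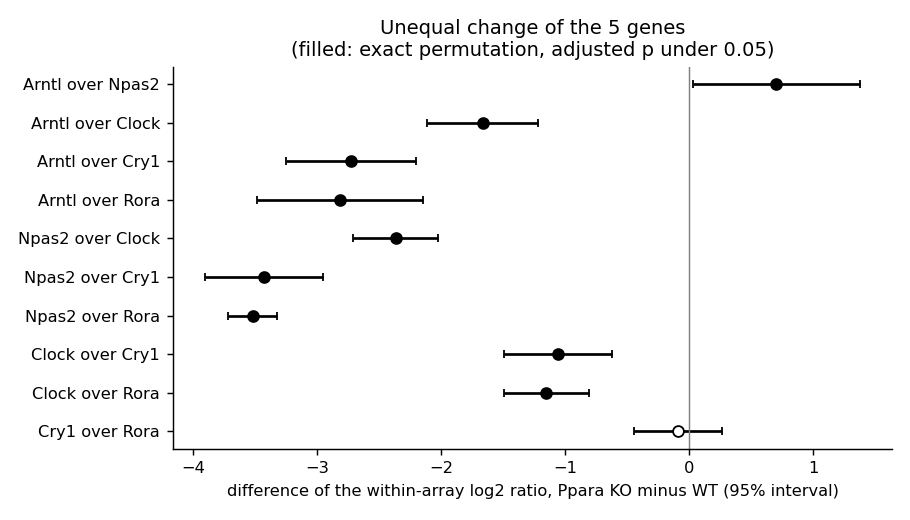
Difference between genotypes (Ppara KO minus WT) of the within-array log2 ratio for the 10 pairs of genes, with 95% intervals on the x axis; filled points passed the exact permutation test after adjustment. Cry1 over Rora is the only open point, at -0.090, and the 3 activator genes also differ among themselves.

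The ranks of the Ppara KO animals are given as a description. By Arntl they ranked, from low to high, 6, 1, 3, 5, 4 and 2, and by Clock 6, 3, 1, 5, 4 and 2. Dbp, the PAR bZIP output gene driven by BMAL1 through E-boxes, ranked them 2, 4, 5, 3, 6 and 1 from low to high. In Ppara KO livers Arntl and Dbp had a Pearson r of -0.95 (exact permutation p = 0.00417, adjusted p = 0.139) and a Spearman rho of -0.94 (exact permutation p = 0.0167, adjusted p = 0.333) over 6 animals. Without animals 2 and 4, which lay farthest from the median of Arntl, r was -0.72 over 4 animals.

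The p-values were adjusted over 40 relations, 20 in each genotype: 10 pairs of the 5 genes, and each gene with Dbp and with Nr1d1, the gene of the repressor REV-ERBα. After adjustment 0 of the 40 passed, by r or by rho. Before adjustment, exact permutation gave a p under 0.05 for r in 3 relations, all in Ppara KO: Arntl with Dbp, Arntl with Clock and Clock with Dbp. No coefficient is given for Clock in Ppara KO, because its values form separate sets. The 3 animals low in Clock were the same 3 that were lowest in Arntl.

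Only some of the other relations in Ppara KO are described here. Among those, 2 turned sign when 2 animals were left out, 1 became larger and 1 kept its sign and most of its size. Further relations turned sign as well. Npas2 with Nr1d1 went from r = 0.15 to -0.76 without animals 1 and 5, and Cry1 with Dbp from -0.82 to 0.066 without animals 1 and 2. Arntl with Nr1d1 had r = -0.76 and rho = -0.49 (exact permutation p = 0.0778 and 0.356, adjusted 0.644 and 0.845), and r = 0.37 without animals 2 and 4. Arntl with Cry1 had r = 0.69 and rho = 0.31 (exact permutation p = 0.129 and 0.564, adjusted 0.698 and 0.845), and r = -0.46 without the same animals. Arntl with Npas2 had r = 0.28 and rho = 0.66 (exact permutation p = 0.606 and 0.175, adjusted 0.922 and 0.845), and r = 0.98 without them. Cry1 with Nr1d1 had r = -0.85 and rho = -0.66 (exact permutation p = 0.0806 and 0.175, adjusted 0.644 and 0.845), and r = -0.75 without animals 1 and 2.

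Within WT livers, where these genes varied little, r ran from -0.64 to 0.62 over the 20 relations, and the smallest exact permutation p was 0.157. Arntl with Clock had r = -0.24 and rho = -0.20 there (exact permutation p = 0.674 and 0.714, adjusted 0.922 and 0.845), and r = 0.57 without WT animals 1 and 5.

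**Figure D3:**
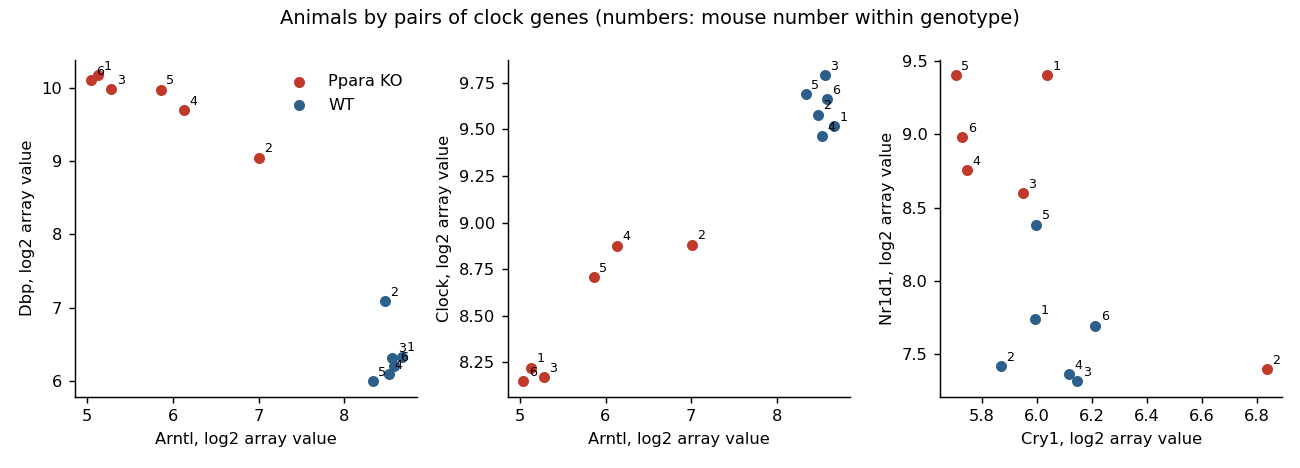
Log2 array values of Arntl against Dbp, Arntl against Clock and Cry1 against Nr1d1, with 1 numbered point per animal (Ppara KO red, WT blue). Among Ppara KO animals, number 2 has the highest Arntl (7.01) and the lowest Dbp, and its Nr1d1 value lies within the WT range.

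Animal 2 of the Ppara KO group stood at one end for much of the clock. Its Cry1 value was 6.84, against 5.71 to 6.04 in the other 5 animals, and its Nr1d1 value of 7.40 lay within the WT range of 7.31 to 8.38, below the 8.60 of the next Ppara KO animal. Of 14 repressor and output genes, Cry1 not counted, it had the lowest Ppara KO value in 7 and the highest in 2. This look at single animals was chosen after their values were seen. For Arntl, Npas2 and Clock it still lay clear of every WT animal. The same animal was the highest of its group in 7 of 7 macrophage markers, whose mean was 8.42 in it, 7.68 to 7.94 in the other Ppara KO animals and 7.42 to 7.80 in WT animals. Marco, a scavenger receptor gene of macrophages, was at 8.39 in it and at 6.28 to 6.74 in the other Ppara KO animals. In WT animals Marco was at 6.04 to 6.22, so the genotypes did not overlap, though it was not called (limma adjusted p = 0.110). The part of macrophages in the clock values of animal 2 was not tested.

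The genes around these 5 moved in 2 directions. Cry1, also a repressor, is counted among the 5 and was not called. Among 8 other measured repressors of the activator pair or of Arntl, 8 rose and 0 fell, against 4.46% called higher among all genes. In 6 of them the groups did not overlap, against 6.51% of all genes in either direction. The median difference of the 8 was 1.29, against 0.0090 over all genes. Per3, a period gene, had 7.03, 7.45 and 7.88 in Ppara KO livers, against 4.14, 4.46 and 4.60 in WT livers as lowest, median and highest (difference 3.04, SE 0.16). Ciart, whose product blocks the BMAL1 and CLOCK pair, differed by 2.76 (SE 0.19), Nr1d2, the gene of REV-ERBβ, by 1.97 (SE 0.13), and Per1 by 1.47 (SE 0.15). Cry2, the other cryptochrome gene and closest relative of Cry1, had 6.83 to 7.43 in Ppara KO livers and 5.93 to 6.41 in WT livers, a rise of 0.97 (SE 0.11, limma adjusted p = 3.47e-05) without overlap. Nr1d1 overlapped between genotypes and rose by 1.10 (SE 0.29, limma adjusted p = 0.0223), a call that ended without WT animals 1, 3 and 5 (limma adjusted p = 0.0663). It also ended when any 1 of Ppara KO animals 1, 5 and 6 or WT animal 3 was left out (limma adjusted p up to 0.0523). Bhlhe41, which encodes the repressor DEC2, rose by 0.72 (SE 0.20, limma adjusted p = 0.0344), and its call ended without any 1 of Ppara KO animals 1, 5 and 6 and WT animals 1, 3, 4 and 5 (up to 0.0788), or without WT animals 1, 3 and 5 together (0.250).

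Of 6 E-box outputs 6 rose and 0 fell, against 4.46% called higher among all genes, with a median difference of 2.24. In all 6 the groups did not overlap, against 6.51% of all genes in either direction. They were Dbp (3.49, SE 0.20), the deubiquitinase gene Usp2 (2.78, SE 0.13), the mitotic kinase gene Wee1 (2.28, SE 0.17), the PAR bZIP genes Tef (2.21, SE 0.11) and Hlf (0.69, SE 0.086), and Nampt (0.84, SE 0.12), which encodes an enzyme of NAD synthesis.

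Genes known from mouse to be driven through ROR and REV-ERB elements, as Arntl is, did not move as a block: of 4 measured, 2 fell and 2 rose. Among all genes 5.77% were called lower and 4.46% higher. Nfil3, which encodes a repressor that competes with PAR bZIP factors for D-boxes, had 5.97, 6.47 and 6.71 in Ppara KO livers, against 7.40, 7.60 and 7.73 in WT livers (difference -1.23, SE 0.11, limma adjusted p = 6.80e-06). E2f8, a cell cycle transcription factor gene, had 4.03, 4.43 and 5.10 in Ppara KO livers, against 6.07, 6.34 and 6.63 in WT livers (difference -1.82, SE 0.17). Both fell without overlap. Gys2, the liver glycogen synthase gene, rose by 0.76 (SE 0.13), and Pik3ap1, an adaptor gene of phosphoinositide signalling, by 0.26 (SE 0.070, limma adjusted p = 0.0280). The rise of Pik3ap1 lost its call without WT animals 1, 3 and 5 together (limma adjusted p = 0.237) and without any 1 of Ppara KO animals 1, 5 and 6 and WT animals 1, 3 and 6 (up to 0.0644). Arntl2, the relative of Arntl, was at 4.06 to 4.38 in Ppara KO livers and 4.19 to 4.60 in WT livers, lower by a margin that only just passed (difference -0.27, SE 0.081, limma adjusted p = 0.0497). Its call held without Ppara KO animal 4 or WT animal 5 and ended without any 1 of the other 10 animals (up to 0.111).

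**Figure D4:**
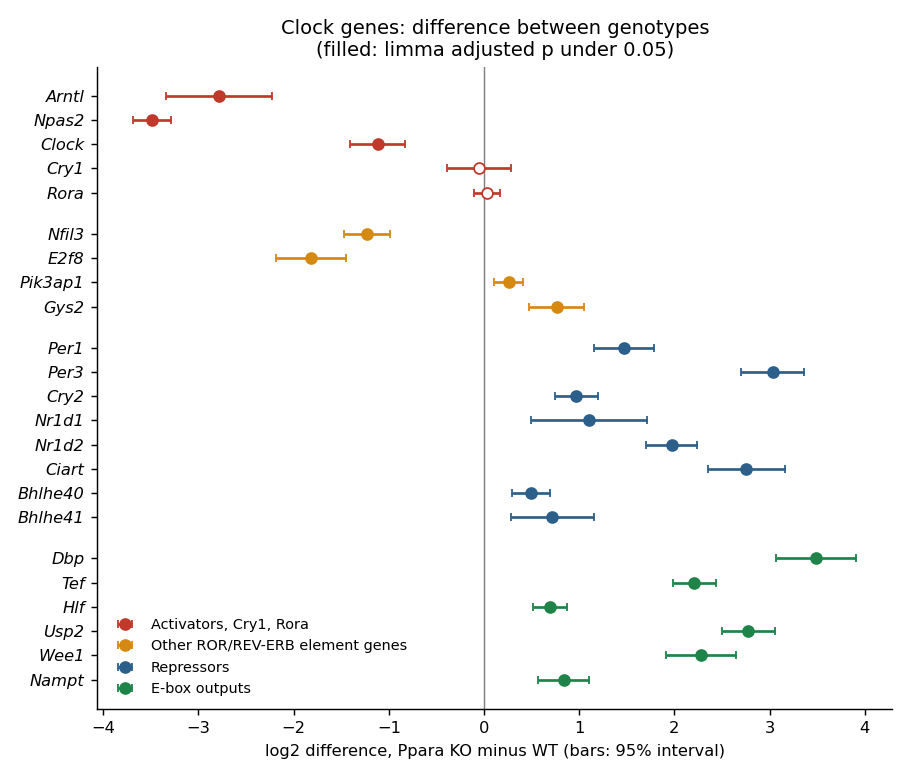
Log2 differences (Ppara KO minus WT, x axis) with 95% intervals for the 5 genes and 3 groups of clock genes around them; filled points have a limma adjusted p under 0.05. Arntl, Npas2, Clock, Nfil3 and E2f8 lie left of 0. All genes of the repressor group, which leaves out Cry1, and all E-box outputs lie right of it. Cry1 and Rora are open points whose intervals span 0.

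Of 7 genes reported to depend on ROR receptors in mouse liver, 5 fell, 1 rose and 1 was not called, against 5.77% lower and 4.46% higher among all genes. The count of falls was 3 without WT animals 1, 3 and 5, when Cyp8b1, a bile acid synthesis gene, and G6pc, a gluconeogenesis gene, were no longer called (limma adjusted p = 0.0672 and 0.152). The call of G6pc also ended without any 1 of Ppara KO animals 1 and 6 and WT animals 1, 2, 3, 4 and 6 (up to 0.0767), and with a replicate block (0.0568). Elovl3, a fatty acid elongase gene, differed by -1.72 (SE 0.24), Insig2, which encodes a brake on sterol-regulated transcription, by -1.03 (SE 0.16), and Cyp7b1, an oxysterol hydroxylase gene, by 1.15 (SE 0.088). Sult1e1, an estrogen sulfotransferase gene, was not called, with 3.20 to 5.99 in Ppara KO livers and 3.15 to 5.04 in WT livers.

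Likeness was read from deviations of the 12 animals from their genotype mean, among 1670 genes with enough level and spread. These are descriptions over animals that share 1 array each for both genes, and the wider Ppara KO spread dominates them. Slc45a3, a solute carrier gene, followed Arntl most closely (r = 0.97, and 0.93 without Ppara KO animal 2). It was itself lower in Ppara KO, with 5.39, 5.77 and 6.66 in Ppara KO livers, against 7.21, 7.23 and 7.30 in WT livers. The next genes for Arntl were Slc22a13 (r = 0.93, and 0.77 without animal 2) and Serpina4-ps1 (0.93 and 0.76), neither of them called between genotypes. Running against Arntl were Slc2a5, the fructose transporter gene (r = -0.87), Slc22a27 (-0.85) and Gstm7, a glutathione transferase gene (-0.84, and -0.53 without animal 2). With Arntl in WT livers alone, r was 0.68 for Slc45a3, 0.035 for Slc22a13 and 0.58 for Serpina4-ps1. For Slc2a5, Slc22a27 and Gstm7 that r was -0.065, -0.73 and -0.085. For Clock the closest were Mical2, a gene of actin turnover, Slc45a3 and Insig2, and those running against it were Mettl7a3, Per3 and Prss8. No coefficient over the 12 animals is given for them, because the Ppara KO animals form 2 sets by Clock. Within WT livers r with Clock was 0.71 for Mical2, 0.23 for Slc45a3, 0.36 for Insig2, -0.79 for Mettl7a3, -0.051 for Per3 and -0.43 for Prss8, over 6 animals and as a description.

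For Npas2 the likeness depended on its 2 outlying animals to a degree that differed between genes. Vpreb2 (r = 0.84), Scara3 (0.77) and Psmb3 (0.77) came out as most like it, but without Ppara KO animal 5 and WT animal 6 they had r = 0.053, -0.0079 and 0.49. Syt3 (-0.84), Kyat3 (-0.83) and Btbd35f1 (-0.82) ran against it, with -0.72, -0.47 and -0.47 without those animals.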

How the data were processed

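Liver RNA of 6 Ppara KO and 6 WT mice was read on MoGene-2_0-st arrays. The authors deposited log2 values. Tools named in the submitters' processing notes are RMA and Partek, without versions. RMA gives all arrays the same distribution of probe values, which hides a shift of most genes at once, and compresses dim genes. The number of arrays limits the precision, with a median SE of a difference of 0.0926.

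The value table held 41345 transcript clusters, of which 23521 had 1 gene symbol, 1814 several and 16010 were not listed in the platform annotation. Clusters with 1 symbol were kept, and the one with the highest mean stood for a gene, which left 22180 genes. Entrez identifiers of 23328 clusters were found in RefSeq (GRCm38.p6), with 0 symbols to update. Clusters with several symbols were not used for named genes, so Per2 was not analysed here.

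Genes were fitted with limma 3.58.1 in R 4.3.3 (lmFit, eBayes, 2-sided) with 1 mean per genotype, and p-values were adjusted by Benjamini-Hochberg over all genes. Exact permutation tests and correlations were computed in Python 3.11.15. The fit was tested on simulated data. The 5 genes and the 16 gene lists were chosen with earlier results of these data known. Named genes are the 5, genes of the lists of relatives, ROR and REV-ERB element genes, repressors and outputs (up to 5 of a list in full, by smallest adjusted p, and all called ones where 5 or fewer were called), up to 3 called and the 2 highest uncalled genes of the modifier, bHLH-PAS and ROR-dependent lists, and the 3 genes most like and most unlike Arntl, Npas2 and Clock among those at or above the median level with an SD within genotype of at least 0.2, without predicted genes, small RNAs and odorant receptors. Cyp8b1, G6pc, the called marker genes and single animals were named after their values were seen. Alternatives covered the variance prior, array weights, normalization, centring, dim genes, the choice of cluster, the features tested, the threshold, a replicate block and left-out animals.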

Additional observations from a re-analysis of the deposited data

Results flagged for a closer look

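In 3 of the 10 groups of 6 animals formed by the 5 genes and 2 genotypes, 1 animal lay far from the others by Dixon's test at the 95% level, which sets the gap to the nearest animal against the range of the group. Chance alone marks about 1 in 20 such groups. Cry1 was at 6.84 in Ppara KO animal 2, with the next animal at 6.04 (gap 0.707 of the range). Npas2 was at 4.63 in Ppara KO animal 5, with the next at 4.23 (0.687), and at 7.95 in WT animal 6, with the next at 7.70 (0.718). The Ppara KO value of Npas2 in animal 5 was still 2.97 log2 units under the lowest WT value.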

How the results depend on the processing

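The calls of Arntl, Npas2 and Clock and the absence of a call for Cry1 and Rora held under each of the alternatives run, and 3 of the 5 genes were lower in each. With 1 animal left out, the difference of Arntl ran from -3.04 to -2.64, of Npas2 from -3.56 to -3.44, of Clock from -1.19 to -1.05, of Cry1 from -0.22 to 0.0034 and of Rora from 0.0066 to 0.066. The sign of Cry1 turned without Ppara KO animal 5 (0.0034); it was never called. The ratio of Cry1 over Rora ran from -0.23 to -0.022 with 1 animal left out. Without the 2 animals farthest from the median, Arntl had r = 0.98 with Npas2, -0.46 with Cry1 and 0.37 with Nr1d1 in Ppara KO, and 0.57 with Clock in WT. The mouse numbers did not pair the genotypes: deviations of animals with the same number correlated at -0.047 to 0.043 and 0 of 6 Ppara KO animals correlated best with their own number.

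Small counts moved. With a replicate block, 1 ROR and REV-ERB element gene and 1 modifier gene rose and 0 relatives fell. At an adjusted p under 0.01, 1 element gene, 1 modifier and 0 bHLH-PAS genes rose, and 0 relatives and 3 ROR-dependent genes fell; without WT animals 1, 3 and 5 the same counts were found. Under a trended robust prior 2 modifiers, 1 bHLH-PAS gene and 0 relatives fell, among the brighter genes (level from the median up) 1 bHLH-PAS gene and 0 relatives fell, and with the mean of clusters 0 relatives fell. With 1 animal left out, 1 to 2 element genes and 1 to 2 modifiers rose, 1 to 2 modifiers and 0 to 1 relatives fell, and 0 to 1 bHLH-PAS genes rose. The relative is Arntl2. Over all genes 2268 were called, 1070 at an adjusted p under 0.01, 1672 with a replicate block and 1008 without WT animals 1, 3 and 5. The causes were not tested. The alternative without WT animals 1, 3 and 5 and the cluster mean and threshold for the lists were added after seeing the data.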

Other observations

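Among genes whose products modify the clock factors after translation, 3 of 13 were called, against 10.2% of all genes. Of the 13 measured genes for kinases, ubiquitin ligases, deacetylases and coregulators, 1 fell, 2 rose and 10 were not called, with a median difference of 0.060. Fbxl21, which encodes a ubiquitin ligase subunit that acts on cryptochromes, fell by 0.53 (SE 0.090, limma adjusted p = 0.00149), at a dim level of 3.59 to 3.81 in Ppara KO livers and 4.05 to 4.54 in WT livers. Prkaa2 and Prkaa1, the genes of the catalytic subunits of AMPK, a kinase that marks CRY1 for degradation, rose by 0.35 (SE 0.071) and 0.28 (SE 0.073). The call of Prkaa1 ended without Ppara KO animal 2 or WT animal 6 (limma adjusted p up to 0.0524). Crebbp, a histone acetyltransferase gene, and Csnk2a1, a casein kinase gene, were the highest by level among those not called, with differences of -0.071 (SE 0.069) and 0.080 (SE 0.064).

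Arntl, Clock and Npas2 belong to the bHLH-PAS family, and of 15 others on the list 0 fell and 1 rose, a share near the 10.2% of all genes, with a median difference of 0.0029. The rise was Hif1a, the gene of the oxygen-regulated HIF1α, by 0.34 (SE 0.091, limma adjusted p = 0.0272), and its call ended without any 1 of Ppara KO animals 1, 3 and 6 and WT animals 2 and 5 (up to 0.0633). Epas1, which encodes HIF2α, and Ahr, the receptor of dioxins, were not called, with differences of -0.17 (SE 0.063) and -0.015 (SE 0.12). Arntl2, also of this family, is not among these 15 and was lower by a margin that only just passed (limma adjusted p = 0.0497).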
